A study of Homo sapiens with 4 samples.

Results

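C4-2B, a castration-resistant human prostate cancer line, was compared with LNCaP, the castration-sensitive line from which it descends, in stranded mRNA sequencing of 1 library per line. The members were the 15580 genes, of 22637 in the deposited table, whose mean over the LNCaP and C4-2B libraries was at least 1 CPM (normalized counts scaled to the effective library size), and the measure was the log2 ratio of C4-2B over LNCaP. LNCaP was established from a lymph node metastasis, and C4-2B came from a LNCaP tumour that was passed through castrated mice and recovered from bone. The series also holds LN-OlapR and 2B-OlapR, the sublines of LNCaP and C4-2B that were selected by chronic exposure to the PARP inhibitor olaparib and kept in it, and their levels are given beside those of the parental lines. All 4 lines are labelled prostatic adenocarcinoma and untreated, and no source used here says whether the sublines had olaparib in the medium when RNA was taken. C4-2B was grown in RPMI 1640 medium with serum. As each line gave a single library, the line, its culture and its library cannot be told apart, and in bulk RNA fewer cells of a kind cannot be told apart from less RNA per cell.

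Androgens drive the growth of prostate luminal cells. Testosterone and dihydrotestosterone act through DNA elements near genes such as KLK3, which encodes prostate-specific antigen, and FKBP5 and TMPRSS2. Androgen deprivation removes the ligand, and castration-resistant disease is the state in which tumours grow regardless, often with androgen target genes still active. LNCaP and C4-2B are a widely used model of that passage because they share their origin.

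Totals ran from 19950537 counts in C4-2B to 26394267 in LNCaP, and scaling factors from 0.961 to 1.03. With single libraries no p-value was computed. A gene was called when its ratio was at least 2-fold, and the 95% intervals of ratios reflect counting error and not the spread between cultures. Each library stood apart from the other 3 by at least 2-fold in both directions. LNCaP was above all of them at 256 genes and below at 286, against 198 and 127 genes for C4-2B, 120 and 327 for LN-OlapR, and 152 and 519 for 2B-OlapR. Levels in the sublines therefore show where the LNCaP or the C4-2B library stood apart from the other lines. The sublines are separate lines selected in olaparib and not repeat libraries, so a feature of a parental library cannot be told apart from change in its subline.

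The lines were examined for 12 markers of prostate luminal epithelium, all of which passed the minimum level. The luminal keratin KRT8 measured 339.9 CPM in LNCaP against 343 in C4-2B, and 259.8 in LN-OlapR against 268 in 2B-OlapR. Its partner KRT18 measured 422 CPM in LNCaP against 417 in C4-2B, and 375 in LN-OlapR against 409 in 2B-OlapR. HOXB13, a homeobox factor of the prostate, measured 421 CPM in LNCaP against 406 in C4-2B, and 381 in LN-OlapR against 507 in 2B-OlapR. The 4 lines were within 2-fold of each other for all 3 genes, with log2 ratios of 0.015, -0.017 and -0.052. EPCAM, an epithelial adhesion molecule, measured 65.9 CPM in LNCaP against 58.3 in C4-2B, and 47.6 in LN-OlapR against 54.00 in 2B-OlapR. FOLH1, which encodes prostate-specific membrane antigen, was high in every library, at 735, 735, 439 and 334 CPM in the order LNCaP, LN-OlapR, C4-2B and 2B-OlapR. The markers that differed most were KLK3, DPP4, KRT19 and MSMB, all higher in C4-2B, and CD24, lower in C4-2B. These were the 5 of 12 markers past 2-fold. The higher were 33.3% of the list and the lower 8.33%, against 8.0% and 7.18% of all genes.

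Markers of other cell types were sparse. Of 10 basal markers, 5 were not analysed here, 3 were under the minimum, and the summed level ran from 20.7 to 44.9 CPM, nearly all from the integrins ITGA6 and ITGB4, whereas KRT14 had between 3 and 13 counts per library. Of 10 immune markers only CD68 and CD14 had rows, with a summed level from 0.6696 CPM in LNCaP to 5.36 in LN-OlapR, and CD68, a lysosomal protein of macrophages that other cells also make, was higher in C4-2B (0.409 CPM in LNCaP against 4.203 in C4-2B). Of 6 endothelial markers VWF and CLDN5 had rows, with sums of 3.48 to 13.2 CPM. Of 18 neuroendocrine markers 4 passed the minimum. ENO2, neuron-specific enolase, measured 13.9 CPM in LNCaP against 4.64 in C4-2B, and DLL3, a Notch ligand of small cell tumours, 14.4 CPM in LNCaP against 22.97 in C4-2B. PTPRC, KRT5, TP63, PECAM1 and CDH5, which define other lineages, were not analysed here. Of 11 stromal markers 5 passed, with sums from 24.7 CPM in 2B-OlapR to 85.1 in LNCaP, and ACTA2, smooth muscle actin, measured 4.65 CPM in LNCaP against 0.195 in C4-2B, and 9.09 in LN-OlapR against 0.338 in 2B-OlapR. PDGFRB was the stromal marker higher in C4-2B, at 0.707 CPM in LNCaP against 2.74 in C4-2B. The part of these markers in the results was not tested.

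The promoter windows of KLK3 and KLK2, neighbouring kallikrein genes on chromosome 19, are shown because the results on androgen signalling turn on this pair, and that of H2AJ because it had the largest ratio of all genes named. Each window holds 250 bases before the transcription start and 50 after it, taken from RefSeq on GRCh38.p14. Capitals in KLK3 (chr19:50854665-50854964, plus strand) and KLK2 (chr19:50873189-50873488, plus strand) mark a match, found by search of both strands, to GAACA followed after 4 bases by GTNCT, the shape of an androgen response element. Capitals in H2AJ (chr12:14774155-14774454, plus strand) mark CG dinucleotides.
KLK3: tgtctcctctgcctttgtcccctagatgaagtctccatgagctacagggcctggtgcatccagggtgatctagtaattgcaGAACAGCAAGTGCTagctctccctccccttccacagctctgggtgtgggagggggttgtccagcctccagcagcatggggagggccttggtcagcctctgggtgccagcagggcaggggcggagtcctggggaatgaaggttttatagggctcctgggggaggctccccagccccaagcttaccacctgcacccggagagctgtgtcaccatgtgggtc
KLK2: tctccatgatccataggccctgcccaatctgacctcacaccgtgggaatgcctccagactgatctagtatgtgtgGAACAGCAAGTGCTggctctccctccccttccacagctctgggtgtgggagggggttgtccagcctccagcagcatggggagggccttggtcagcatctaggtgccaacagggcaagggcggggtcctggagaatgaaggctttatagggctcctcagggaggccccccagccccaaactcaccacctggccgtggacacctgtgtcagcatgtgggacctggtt
H2AJ: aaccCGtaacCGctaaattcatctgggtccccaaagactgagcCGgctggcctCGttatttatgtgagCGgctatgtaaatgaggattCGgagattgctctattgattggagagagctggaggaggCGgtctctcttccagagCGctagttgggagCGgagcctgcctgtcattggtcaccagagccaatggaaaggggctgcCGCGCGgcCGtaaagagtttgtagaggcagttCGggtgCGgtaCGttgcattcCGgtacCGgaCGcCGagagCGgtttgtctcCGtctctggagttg
The match began at position -169 from the KLK3 start and -175 from the KLK2 start. It was present in 87 of 35116 RefSeq promoter windows, or 0.248%, and of 21 androgen-induced genes with a window it was found in KLK2 and KLK3 and in no other. The open base N of the pattern is G in both, and the marked stretches are identical. As the windows are also alike, the match in KLK2 is not separate from that in KLK3. Enrichment of the match among androgen-induced genes was not tested. In KLK3 the base before the match is A and completes the hexamer AGAACA, whereas in KLK2 that base is G and the window lacked the hexamer. The hexamer was held by 14.8% of all windows on either strand. The windows of KLK3 and KLK2 were identical at 251 of 313 aligned columns (80.2%). H2AJ had 22 CG dinucleotides in its window, against 2 in KLK3, 3 in KLK2 and a median of 14 over all windows.

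Over the whole transcriptome, 1246 genes (8.0% of those tested) were higher in C4-2B than in LNCaP by 2-fold or more, and 1118 (7.18%) were lower. Every count of list members past 2-fold is to be read beside these shares. The median log2 ratio was -0.016, and the middle 50% of genes lay between -0.38 and 0.36. At least 4-fold differences were seen in 452 genes on the higher side and 289 on the lower, and at least 16-fold differences in 157 and 64. Protein-coding genes made up 932 of the higher and 816 of the lower genes. Among the genes tested, 43 had 0 counts in LNCaP and 14 had 0 counts in C4-2B.

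**Figure D1:**
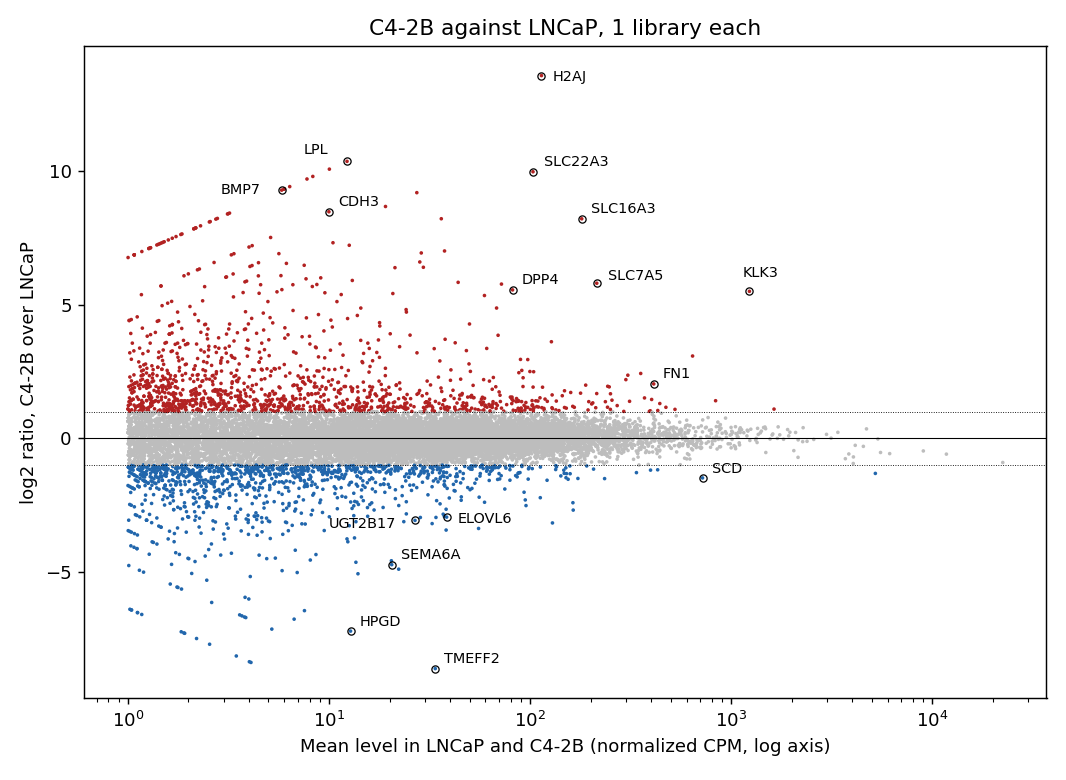
Each point is a gene, placed by its mean level in the LNCaP and C4-2B libraries (normalized CPM, log axis) and by its log2 ratio, with dotted lines at 2-fold. Red points are the 1246 genes at least 2-fold higher in C4-2B and blue points the 1118 genes at least 2-fold lower. H2AJ, with 0 counts in LNCaP, lies at the top, and KLK3 lies far above other genes of similar mean level.

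The olaparib-resistant sublines give a second contrast of the same ancestry, 2B-OlapR against LN-OlapR, that shares no library with the first. Of these 15580 genes, 8.59% differed by 2-fold or more toward 2B-OlapR and 9.65% toward LN-OlapR. Of the 1246 genes higher in C4-2B, 641 (51.4%, and 47.9% of those higher in 2B-OlapR) were past 2-fold the same way in the sublines, 75 (6.02%) were past it the opposite way and 530 were within 2-fold. Of the 1118 lower genes, 538 (48.1%, and 35.8% of those lower in 2B-OlapR) went the same way, 72 (6.44%) the opposite way and 508 neither. The sublines had also been selected in olaparib, so a gene that differs between the contrasts may differ by line of descent or by selection, which cannot be told apart.

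**Figure D2:**
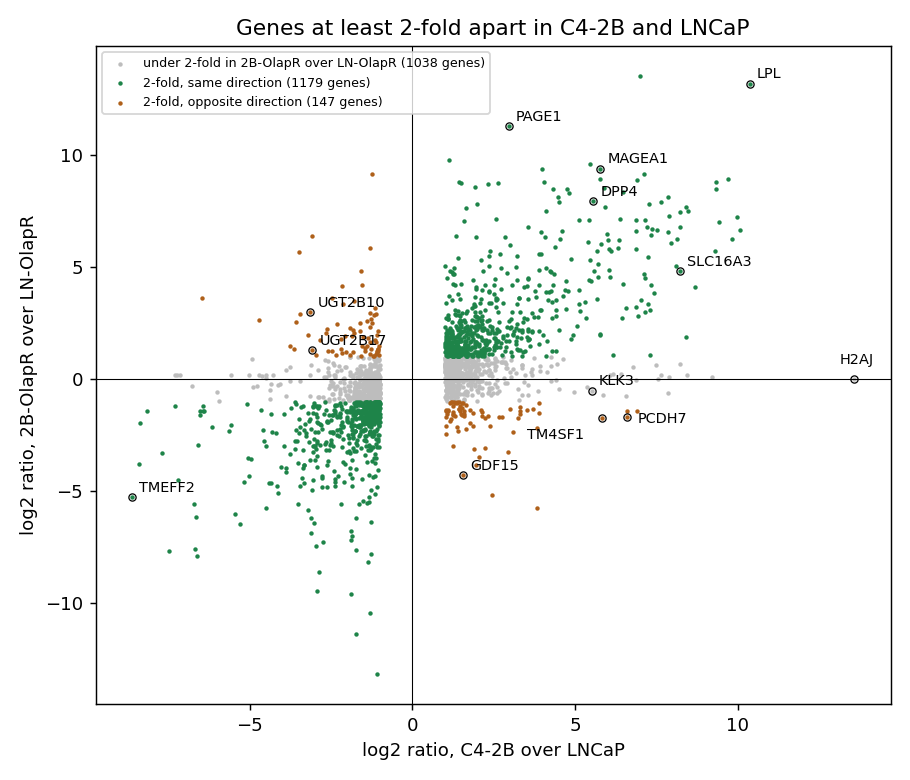
Genes at least 2-fold apart in C4-2B and LNCaP, placed by that log2 ratio (horizontal) and by the log2 ratio of 2B-OlapR over LN-OlapR (vertical). Green marks genes past 2-fold in the same direction in the sublines, orange the opposite direction and grey those within 2-fold. DPP4, LPL and TMEFF2 lie along the shared direction, KLK3 and H2AJ near 0 on the vertical axis, and GDF15, PCDH7 and TM4SF1 on the opposite side.

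Where the mean level reached 10 CPM, the largest ratios on the higher side belonged to genes nearly silent in LNCaP. H2AJ, a replication-independent histone H2A variant, measured 0 CPM in LNCaP against 228 in C4-2B, and 202 in LN-OlapR against 205 in 2B-OlapR. It had 0 counts in LNCaP and 4662 in C4-2B, which was at least 2042-fold higher against a floor of 3 counts. LNCaP alone lacked it, whereas LN-OlapR, which descends from LNCaP, was at the level of the other lines, and histone genes with near-identical sequence can share reads. The lipoprotein lipase gene LPL, which releases fatty acids from circulating triglyceride, measured 0 CPM in LNCaP against 24.6 in C4-2B, and 0 in LN-OlapR against 198 in 2B-OlapR. It was at least 220.3-fold higher in C4-2B than in LNCaP, and was at 0 in both lines of the LNCaP branch. The organic cation transporter SLC22A3 measured 0.186 CPM in LNCaP against 207 in C4-2B, and 0.0857 in LN-OlapR against 15.97 in 2B-OlapR, a log2 ratio of 9.98 (95% counting interval 8.77 to 11.19). The lactate exporter SLC16A3 (MCT4) measured 1.19 CPM in LNCaP against 360.1 in C4-2B, and 4.89 in LN-OlapR against 139 in 2B-OlapR, a log2 ratio of 8.22 (95% counting interval 7.72 to 8.72). Both transporters were high in each line of the C4-2B branch and low in each line of the LNCaP branch.

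Signalling and transcription genes stood beside them. NR2F1, an orphan nuclear receptor, measured 0.223 CPM in LNCaP against 72.1 in C4-2B, and 0.214 in LN-OlapR against 25.8 in 2B-OlapR, and KLF7, a zinc finger factor, 0.149 CPM in LNCaP against 25.1 in C4-2B, and 0.686 in LN-OlapR against 30.3 in 2B-OlapR. MAPK13, the p38-delta kinase, measured 0.446 CPM in LNCaP against 57.1 in C4-2B, and 8.79 in LN-OlapR against 62.8 in 2B-OlapR. NR2F1 and KLF7 split the lines by branch, and MAPK13 was intermediate in LN-OlapR. The adhesion molecule ICAM1 measured 0.112 CPM in LNCaP against 20.8 in C4-2B, the autophagy membrane protein ATG9B 0.0744 CPM in LNCaP against 38.1 in C4-2B and the mitochondrial acyl-CoA dehydrogenase ACADL 0.558 CPM in LNCaP against 74.5 in C4-2B. Others of the 15 highest were the long noncoding RNA LINC00632 (at 0 counts in LNCaP), the vesicle release factor CADPS2, the germ cell factor SOHLH2 and the protocadherin PCDH7, with levels in C4-2B from 20.1 to 58.3 CPM. PCDH7 measured 0.558 CPM in LNCaP against 56.00 in C4-2B, and 70.1 in LN-OlapR against 21.5 in 2B-OlapR, so that here LNCaP was the low library of the 4.

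The lowest ratios were those of genes well expressed in LNCaP. TMEFF2, a membrane protein abundant in normal prostate, measured 67.4 CPM in LNCaP against 0.147 in C4-2B, and 0.9003 in LN-OlapR against 0 in 2B-OlapR. It had 1811 counts in LNCaP and 3 in C4-2B, and was 459.5-fold lower (exact 95% counting interval 157 to 2230.2). HPGD, which inactivates prostaglandins and is induced by androgen in LNCaP, measured 25.4 CPM in LNCaP against 0.147 in C4-2B, and 2.701 in LN-OlapR against 0.0965 in 2B-OlapR, and was 174-fold lower (exact 95% counting interval 59.1 to 844) in C4-2B. For both genes LNCaP was the highest library, LN-OlapR was lower and the C4-2B branch was lower again. The semaphorin SEMA6A measured 39.5 CPM in LNCaP against 1.47 in C4-2B, and 2.74 in LN-OlapR against 3.09 in 2B-OlapR, the cyclic nucleotide phosphodiesterase PDE10A 39.2 CPM in LNCaP against 1.61 in C4-2B, and 5.402 in LN-OlapR against 1.11 in 2B-OlapR and the peroxidasin PXDN 101 CPM in LNCaP against 9.72 in C4-2B, and 11.3 in LN-OlapR against 1.25 in 2B-OlapR. The focal adhesion protein TLN2 measured 23.2 CPM in LNCaP against 1.56 in C4-2B, and 12.3 in LN-OlapR against 0.772 in 2B-OlapR. The tubulin TUBB4A measured 58.7 CPM in LNCaP against 6.402 in C4-2B, and 43.5 in LN-OlapR against 6.13 in 2B-OlapR. TLN2 and TUBB4A were low in both lines of the C4-2B branch. HDGFL3, PRRT1B, DPYSL5, DHRS2, BCHE, KCNN2, DSEL and GSTA1 completed the 15 lowest, with log2 ratios from -5.07 to -3.12. DHRS2, a mitochondrial reductase, measured 22.9 CPM in LNCaP against 1.66 in C4-2B, and 16.6 in LN-OlapR against 24.03 in 2B-OlapR, so that its low level was found in C4-2B and not in 2B-OlapR.

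A further 4 genes were chosen after their values were seen. SLC7A5 (LAT1), which imports large neutral amino acids, measured 7.51 CPM in LNCaP against 422 in C4-2B, and 5.14 in LN-OlapR against 336 in 2B-OlapR, a log2 ratio of 5.81 (95% counting interval 5.61 to 6.01), and split the lines by branch. TM4SF1, a tetraspanin-like surface protein, measured 1.49 CPM in LNCaP against 86.3 in C4-2B, and 87.1 in LN-OlapR against 26.3 in 2B-OlapR, and SMO, the Hedgehog signal transducer, 5.91 CPM in LNCaP against 60.8 in C4-2B, and 18.8 in LN-OlapR against 11.4 in 2B-OlapR. RUNX1, a transcription factor, measured 0.0744 CPM in LNCaP against 8.85 in C4-2B, and 5.14 in LN-OlapR against 3.04 in 2B-OlapR, 119-fold higher (exact 95% counting interval 32.4 to 989) than the 2 counts in LNCaP. For TM4SF1 and RUNX1, LNCaP was the low library and LN-OlapR was near C4-2B or between the lines.

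The androgen axis showed large differences in single genes, in both directions. KLK3 measured 53.1 CPM in LNCaP against 2412 in C4-2B, and 2685 in LN-OlapR against 1870.1 in 2B-OlapR. It was higher in C4-2B than in LNCaP with a log2 ratio of 5.50 (95% counting interval 5.43 to 5.58). LNCaP was the low library, LN-OlapR was as high as C4-2B, and 2B-OlapR over LN-OlapR gave a log2 ratio of -0.52. KLK2, whose promoter window carries the same element, measured 126 CPM in LNCaP against 247 in C4-2B, and 748 in LN-OlapR against 233 in 2B-OlapR, a log2 ratio of 0.97 (95% counting interval 0.90 to 1.03) that falls just short of 2-fold. KLK2 was also lowest in LNCaP, but its highest level was in LN-OlapR.

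Of 30 androgen-induced genes, all tested, 6 were at least 2-fold higher in C4-2B (against 8.0% of all genes) and 3 were lower by as much (against 7.18%). Their median of -0.24 on the log2 scale (95% binomial interval -0.44 to 0.64) had an interval that included 0, with 14 members above 0 and 16 below. Besides KLK3 the higher members were PMEPA1, STEAP4, ELL2, PLPP1 and FKBP5. PMEPA1, a feedback inhibitor of TGF-beta signalling, measured 103 CPM in LNCaP against 392 in C4-2B, and 291 in LN-OlapR against 368 in 2B-OlapR. FKBP5, a co-chaperone used as a readout of androgen activity, measured 194 CPM in LNCaP against 391 in C4-2B, and 441 in LN-OlapR against 257 in 2B-OlapR. ELL2, an elongation factor, measured 60.6 CPM in LNCaP against 145 in C4-2B, and 75.3 in LN-OlapR against 157 in 2B-OlapR, and the lipid phosphatase PLPP1 149.7 CPM in LNCaP against 336 in C4-2B, and 237 in LN-OlapR against 600.1 in 2B-OlapR. PMEPA1 and FKBP5 were lowest in LNCaP among the 4 lines, while ELL2 and PLPP1 were higher in both lines of the C4-2B branch than in either line of the LNCaP branch. STEAP4, a metalloreductase, was low throughout, at 0.856 CPM in LNCaP against 2.35 in C4-2B, and 5.102 in LN-OlapR against 2.03 in 2B-OlapR.

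Other classical targets went both ways. TMPRSS2, the serine protease whose promoter is fused to ETS genes in many prostate tumours, measured 199.6 CPM in LNCaP against 130.4 in C4-2B, and 485 in LN-OlapR against 263 in 2B-OlapR, a log2 ratio of -0.61 (95% counting interval -0.68 to -0.55). FOLH1, which androgen represses, had a log2 ratio of -0.74. SLC45A3 (prostein) was within 2-fold, at 379.7 CPM in LNCaP against 592 in C4-2B, and 485 in LN-OlapR against 74.7 in 2B-OlapR. The lower members past 2-fold were HPGD, the transcription factor MAF with 42.2 CPM in LNCaP against 17.2 in C4-2B, and the ubiquitin ligase HERC3 with 123 CPM in LNCaP against 59.2 in C4-2B. In the sublines the list's median was -0.76, with 9 members above 0 and 21 below.

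The pioneer factor FOXA1 measured 371 CPM in LNCaP against 420.2 in C4-2B, and 349 in LN-OlapR against 323 in 2B-OlapR, with a log2 ratio of 0.18. Of 17 hormone response regulators tested, 1 was past 2-fold in each direction, and the median of -0.046 on the log2 scale (95% binomial interval -0.27 to 0.18) was near that of all genes. The higher was NCOA1 (SRC-1), a p160 coactivator, at 58.5 CPM in LNCaP against 155 in C4-2B, and 78.8 in LN-OlapR against 107 in 2B-OlapR. The lower was its family member NCOA2 (TIF2), at 83.5 CPM in LNCaP against 38.6 in C4-2B, and 63.3 in LN-OlapR against 32.00 in 2B-OlapR. The corepressor NCOR1 measured 261 CPM in LNCaP against 161 in C4-2B. NCOA1 and NCOA2 thus differed in opposite directions, by 1.40 and -1.11 on the log2 scale.

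The UGT2B enzymes, which conjugate androgens to glucuronic acid and so inactivate them, were lower in C4-2B. Of 6 tested members, 5 were at least 2-fold lower (against 7.18% of all genes) and none was higher by as much. The median of -2.63 on the log2 scale (95% binomial interval -6.53 to 0.16) was the lowest of the lists with at least 6 tested members. UGT2B15 measured 74.7 CPM in LNCaP against 16.3 in C4-2B, and 0.815 in LN-OlapR against 2.896 in 2B-OlapR and UGT2B17 47.9 CPM in LNCaP against 5.67 in C4-2B, and 0.343 in LN-OlapR against 0.869 in 2B-OlapR. UGT2B11 measured 45.6 CPM in LNCaP against 20.2 in C4-2B, and 0.643 in LN-OlapR against 1.35 in 2B-OlapR and UGT2B10 10.9 CPM in LNCaP against 1.22 in C4-2B, and 0 in LN-OlapR against 0.145 in 2B-OlapR. LNCaP was the highest of the 4 lines for each of these genes, C4-2B was next, and LN-OlapR was the lowest. UGT2B4 had 60 counts in LNCaP and 0 in C4-2B, and was at least 15.2-fold lower, UGT2B28 was alike in the parental lines at 11.7 CPM in LNCaP against 13.1 in C4-2B, and UGT2B7 was under the minimum. In the sublines the order was turned, with a median of 1.17 and 5 of 6 members above 0, from low levels in both. The family lies in a cluster of near-identical genes on chromosome 4, and estimated counts can divide reads among copies, so the split between members is uncertain.

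Genes held down by androgen were mixed. Of 9, 2 were higher by 2-fold or more (22.2%, against 8.0% of all genes) and 3 were lower (33.3%, against 7.18%). Their median was -0.55 on the log2 scale (95% binomial interval -3.07 to 2.57), and UGT2B15 and UGT2B17 are members of both this list and the UGT2B list. DDC, the decarboxylase that makes dopamine and serotonin, measured 3.61 CPM in LNCaP against 25.8 in C4-2B, and 8.23 in LN-OlapR against 14.1 in 2B-OlapR, and the receptor kinase MET 0.6696 CPM in LNCaP against 4.06 in C4-2B, and 1.200 in LN-OlapR against 1.79 in 2B-OlapR. OPRK1, the kappa opioid receptor, had 55 counts in LNCaP and 0 in C4-2B, at least 13.96-fold lower. Of 17 genes of steroid synthesis, 8 were tested and 2 were at least 2-fold higher (25% of those tested, against 8.0% of all genes). These were the steroid sulfatase STS, which releases active steroid from sulfated stores, at 9.37 CPM in LNCaP against 18.9 in C4-2B, and 14.6 in LN-OlapR against 21.9 in 2B-OlapR, and the side-chain cleavage enzyme CYP11A1, at 0.521 CPM in LNCaP against 2.49 in C4-2B, and 1.801 in LN-OlapR against 0.193 in 2B-OlapR. HSD17B4, which oxidizes estradiol and acts in peroxisomes, measured 158 CPM in LNCaP against 104 in C4-2B.

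**Figure D3:**
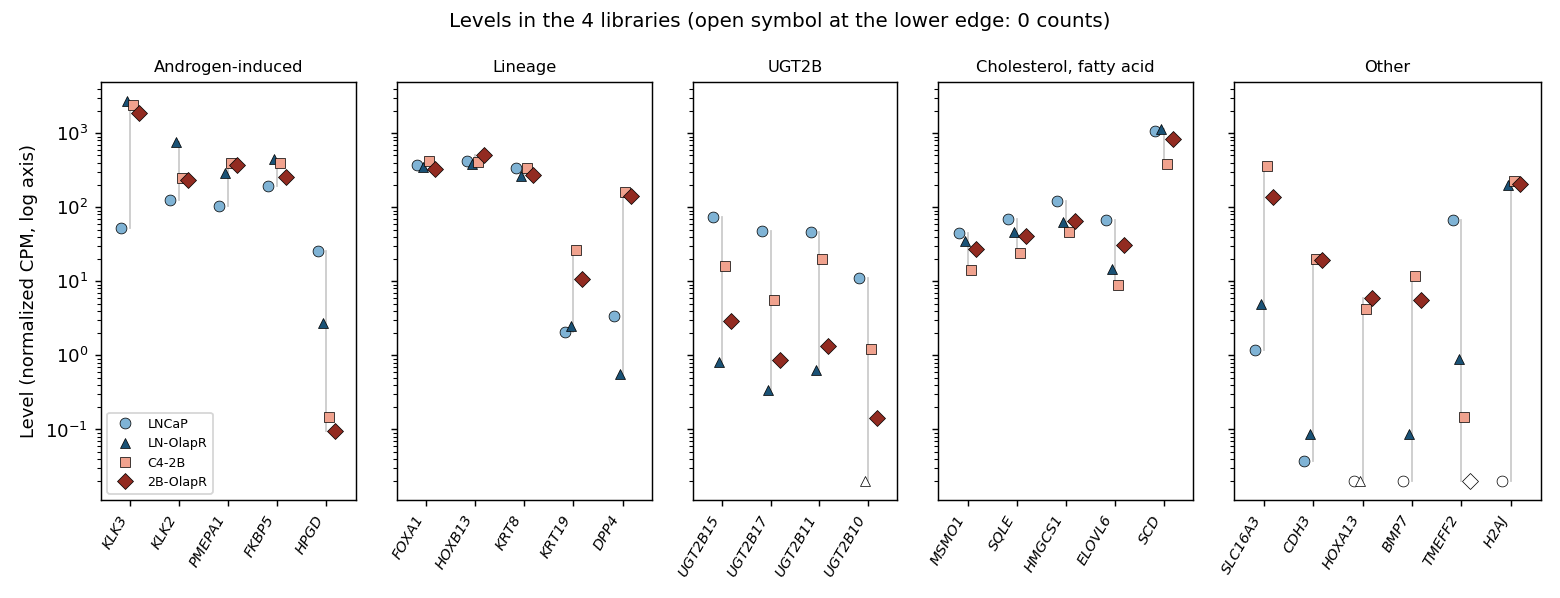
Levels (normalized CPM, log axis) of genes of the androgen axis, lineage, UGT2B family, cholesterol and fatty acid synthesis and others in the 4 libraries, 1 symbol per library, with open symbols at the lower edge for 0 counts. KLK3 and H2AJ are low in LNCaP alone, DPP4, CDH3, BMP7 and HOXA13 split the lines by branch, and the UGT2B genes are highest in LNCaP.

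Most tested genes of the HOXA and HOXB clusters were higher in C4-2B. HOX genes encode homeobox factors that set position along the body axis, and HOXA13 and HOXA11 pattern the urogenital tract. Of 11 HOXA genes, 10 had rows and 4 of these were under the minimum. All 6 tested HOXA genes were at least 2-fold higher in C4-2B, against 8.0% of all genes, with a median of 3.27 on the log2 scale (95% binomial interval 1.15 to 7.84). All but HOXA10 were under 1 CPM in LNCaP and passed the minimum only through C4-2B. The minimum thus set their direction, and the share and the median do not describe the cluster as a whole. HOXA13 measured 0 CPM in LNCaP against 4.25 in C4-2B, and 0 in LN-OlapR against 5.98 in 2B-OlapR, at least 38.1-fold higher against the floor. HOXA11 measured 0.223 CPM in LNCaP against 15.1 in C4-2B, and 0.129 in LN-OlapR against 13.3 in 2B-OlapR and HOXA10 20.3 CPM in LNCaP against 45.2 in C4-2B, and 18.3 in LN-OlapR against 49.7 in 2B-OlapR. The C4-2B branch was above the LNCaP branch for all 3. HOXA5, HOXA6 and HOXA7 were also higher, from at most 0.893 CPM in LNCaP to between 2.54 and 4.20 in C4-2B. These members are neighbours in a cluster on chromosome 7 and are not independent.

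In the HOXB cluster 4 of 5 tested genes were at least 2-fold higher (against 8.0% of all genes), and the exception was HOXB13, whose level was alike. HOXB5, HOXB6 and HOXB7 were under 1 CPM in LNCaP and passed the minimum only through C4-2B, which set their direction. HOXB7 measured 0.0372 CPM in LNCaP against 10.2 in C4-2B, and 0.0857 in LN-OlapR against 10.6 in 2B-OlapR, 275-fold higher (exact 95% counting interval 48.7 to 10896) than a single count. HOXB9 measured 1.82 CPM in LNCaP against 5.86 in C4-2B, and 9.39 in LN-OlapR against 6.32 in 2B-OlapR, HOXB6 0.149 CPM in LNCaP against 4.15 in C4-2B, and 1.801 in LN-OlapR against 3.33 in 2B-OlapR and HOXB5 0 CPM in LNCaP against 2.15 in C4-2B, and 1.71 in LN-OlapR against 1.69 in 2B-OlapR. HOXB7 split the lines by branch, whereas HOXB5, HOXB6 and HOXB9 were lowest in LNCaP. Of 8 tested HOXC genes, HOXC8 (0.2604 CPM in LNCaP against 9.68 in C4-2B) and HOXC12 (8.07 CPM in LNCaP against 23.7 in C4-2B) were at least 2-fold higher and HOXC10 (1.86 CPM in LNCaP against 0.293 in C4-2B) lower. Among all genes 8.0% were higher by as much and 7.18% lower. HOXC8 passed the minimum only through C4-2B, and HOXC10 only through LNCaP.

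Adhesion genes differed in kind. Of 29 cadherins and protocadherins, 21 had rows and 13 of these were under the minimum. Of the 8 tested, 5 were higher by 2-fold or more (against 8.0% of all genes) and 1 was lower (against 7.18%). Their median was 1.49 on the log2 scale (95% binomial interval -2.39 to 8.48). CDH3, PCDH7 and PCDH9 were under 1 CPM in LNCaP and passed the minimum only through C4-2B. The share and the median were therefore shaped by the minimum. CDH3, the P-cadherin of basal epithelium, measured 0.0372 CPM in LNCaP against 19.9 in C4-2B, and 0.0857 in LN-OlapR against 19.1 in 2B-OlapR, 536-fold higher (exact 95% counting interval 95.7 to 21222) than a single count. PCDH1 measured 18.4 CPM in LNCaP against 64.3 in C4-2B, and 38.3 in LN-OlapR against 124 in 2B-OlapR. CDH1, the E-cadherin that joins epithelial cells, measured 572 CPM in LNCaP against 473 in C4-2B, and 544 in LN-OlapR against 449 in 2B-OlapR, a log2 ratio of -0.27. CDH24, PCDH9 and PCDH7 were the other higher members, and CDH26 was lower at 23.1 CPM in LNCaP against 4.398 in C4-2B, and 0.729 in LN-OlapR against 0.241 in 2B-OlapR. Of 23 epithelial junction genes only OVOL1, a zinc finger regulator of epithelial identity, passed 2-fold (5.21 CPM in LNCaP against 13.7 in C4-2B), and the median of -0.043 on the log2 scale (95% binomial interval -0.21 to 0.41) was near 0. TJP3 was its lowest member, with a log2 ratio of -0.98.

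DPP4, a surface peptidase, measured 3.39 CPM in LNCaP against 160.2 in C4-2B, and 0.557 in LN-OlapR against 142 in 2B-OlapR, a log2 ratio of 5.56 (95% counting interval 5.26 to 5.86). KRT19, a keratin of simple and progenitor epithelium, measured 2.08 CPM in LNCaP against 26.7 in C4-2B, and 2.49 in LN-OlapR against 10.6 in 2B-OlapR, and CD24, a glycoprotein ligand, 27.5 CPM in LNCaP against 5.13 in C4-2B, and 1.29 in LN-OlapR against 0.676 in 2B-OlapR. DPP4 and KRT19 split the lines by branch, while CD24 was highest in LNCaP and low in the other 3 lines. MSMB, a secreted protein of seminal plasma, was low in every line, at most 3.08 CPM.

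Of 20 bone-related genes, which were listed because C4-2B came from bone, 4 were tested and 12 were not analysed here. RUNX2, the master factor of osteoblasts, measured 1.93 CPM in LNCaP against 6.500 in C4-2B, a log2 ratio of 1.74 (95% counting interval 1.28 to 2.20). BMP7 measured 0 CPM in LNCaP against 11.6 in C4-2B, and 0.0857 in LN-OlapR against 5.598 in 2B-OlapR, at least 104-fold higher, and BMP6 11.9 CPM in LNCaP against 1.22 in C4-2B, and 4.33 in LN-OlapR against 0.724 in 2B-OlapR. The bone morphogenetic proteins BMP7 and BMP6 thus stood on opposite sides. Collagen COL1A1, the main protein of bone matrix, was at 15.2 CPM in LNCaP against 16.1 in C4-2B.

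Among mesenchymal genes FN1, fibronectin, measured 161 CPM in LNCaP against 662 in C4-2B, and 401 in LN-OlapR against 648 in 2B-OlapR, a log2 ratio of 2.04 (95% counting interval 1.99 to 2.09), and SNAI2, a repressor of epithelial genes, 3.199 CPM in LNCaP against 8.89 in C4-2B, and 8.27 in LN-OlapR against 3.09 in 2B-OlapR. Vimentin (VIM) measured 57.02 CPM in LNCaP against 41.8 in C4-2B, and 1.46 in LN-OlapR against 9.41 in 2B-OlapR, with a log2 ratio of -0.45. LN-OlapR had by far the lowest vimentin. Of 16 integrins and laminins tested, the laminins LAMC3 (2.79 CPM in LNCaP against 28.9 in C4-2B) and LAMB1 (6.696 CPM in LNCaP against 23.3 in C4-2B) were at least 2-fold higher, LAMA1 (12.4 CPM in LNCaP against 5.62 in C4-2B) and LAMB2 (134 CPM in LNCaP against 63.2 in C4-2B) at least 2-fold lower, and no integrin passed 2-fold. Of 12 tested collagens, COL9A3 and COL4A2 were higher, with log2 ratios of 1.89 and 1.84, and COL5A2 and COL4A5 lower, with -3.21 and -1.53. Each direction held 12.5% of the integrins and laminins and 16.7% of the collagens, against 8.0% (higher) and 7.18% (lower) of all genes.

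Surface proteins that serve as drug or imaging targets were examined in 18 tested genes, of which 4, among them EGFR, MET and PSCA, were higher by 2-fold or more and TMEFF2 was lower. The shares were 22.2% and 5.56% of the list, against 8.0% and 7.18% of all genes. PSCA, prostate stem cell antigen, measured 4.28 CPM in LNCaP against 27.7 in C4-2B, and 6.22 in LN-OlapR against 16.8 in 2B-OlapR. EGFR, the epidermal growth factor receptor, measured 74.4 CPM in LNCaP against 196 in C4-2B, and 103 in LN-OlapR against 474 in 2B-OlapR, a log2 ratio of 1.39 (95% counting interval 1.32 to 1.47), with the C4-2B branch above the LNCaP branch. Its relatives ERBB2 and ERBB3 had log2 ratios of 0.15 and -0.036, and its ligand TGFA measured 2.604 CPM in LNCaP against 1.12 in C4-2B. NRG4, a ligand of ERBB4, was the lowest of 7 tested genes of the EGFR family and its ligands, with a log2 ratio of -1.30.

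Growth factor and developmental pathways held single large differences. IGF1, insulin-like growth factor 1, measured 6.55 CPM in LNCaP against 78.3 in C4-2B, and 8.96 in LN-OlapR against 30.7 in 2B-OlapR, a log2 ratio of 3.58 (95% counting interval 3.35 to 3.80). Its receptor IGF1R measured 120.5 CPM in LNCaP against 173 in C4-2B, the adaptor IRS1 5.096 CPM in LNCaP against 11.8 in C4-2B, the scavenging receptor IGF2R 742 CPM in LNCaP against 374 in C4-2B and the binding protein IGFBP3 5.06 CPM in LNCaP against 6.35 in C4-2B. In all, 7 of 8 tested genes of this axis were above 0, 2 of them past 2-fold (25% of the 8, against 8.0% of all genes). The median was 0.55 on the log2 scale (95% binomial interval -0.99 to 3.58). Of 27 Wnt pathway genes, the receptors FZD2 (1.38 CPM in LNCaP against 8.45 in C4-2B) and FZD4 (15.99 CPM in LNCaP against 74.3 in C4-2B) and the ligand WNT10A were at least 2-fold higher. AXIN2, a feedback target of beta-catenin, was lower (12.6 CPM in LNCaP against 3.71 in C4-2B), as was WNT4, and the median of 0.056 on the log2 scale (95% binomial interval -0.10 to 0.28) was near 0. The shares of Wnt genes past 2-fold, 11.1% higher and 7.41% lower, were near those of all genes, 8.0% and 7.18%. Of 18 Notch genes, the Fringe enzyme LFNG (3.87 CPM in LNCaP against 29.1 in C4-2B), the target genes HES1 (5.58 CPM in LNCaP against 24.04 in C4-2B) and HES4, and the receptor NOTCH1 (42.7 CPM in LNCaP against 92.8 in C4-2B) were at least 2-fold higher, while the ligand JAG1 (42.7 CPM in LNCaP against 11.9 in C4-2B), the DNA-binding partner RBPJ (80.2 CPM in LNCaP against 36.7 in C4-2B) and the coactivator MAML2 (2.64 CPM in LNCaP against 0.147 in C4-2B) were at least 2-fold lower. The Notch shares were 22.2% higher and 16.7% lower, against 8.0% and 7.18% of all genes.

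**Figure D4:**
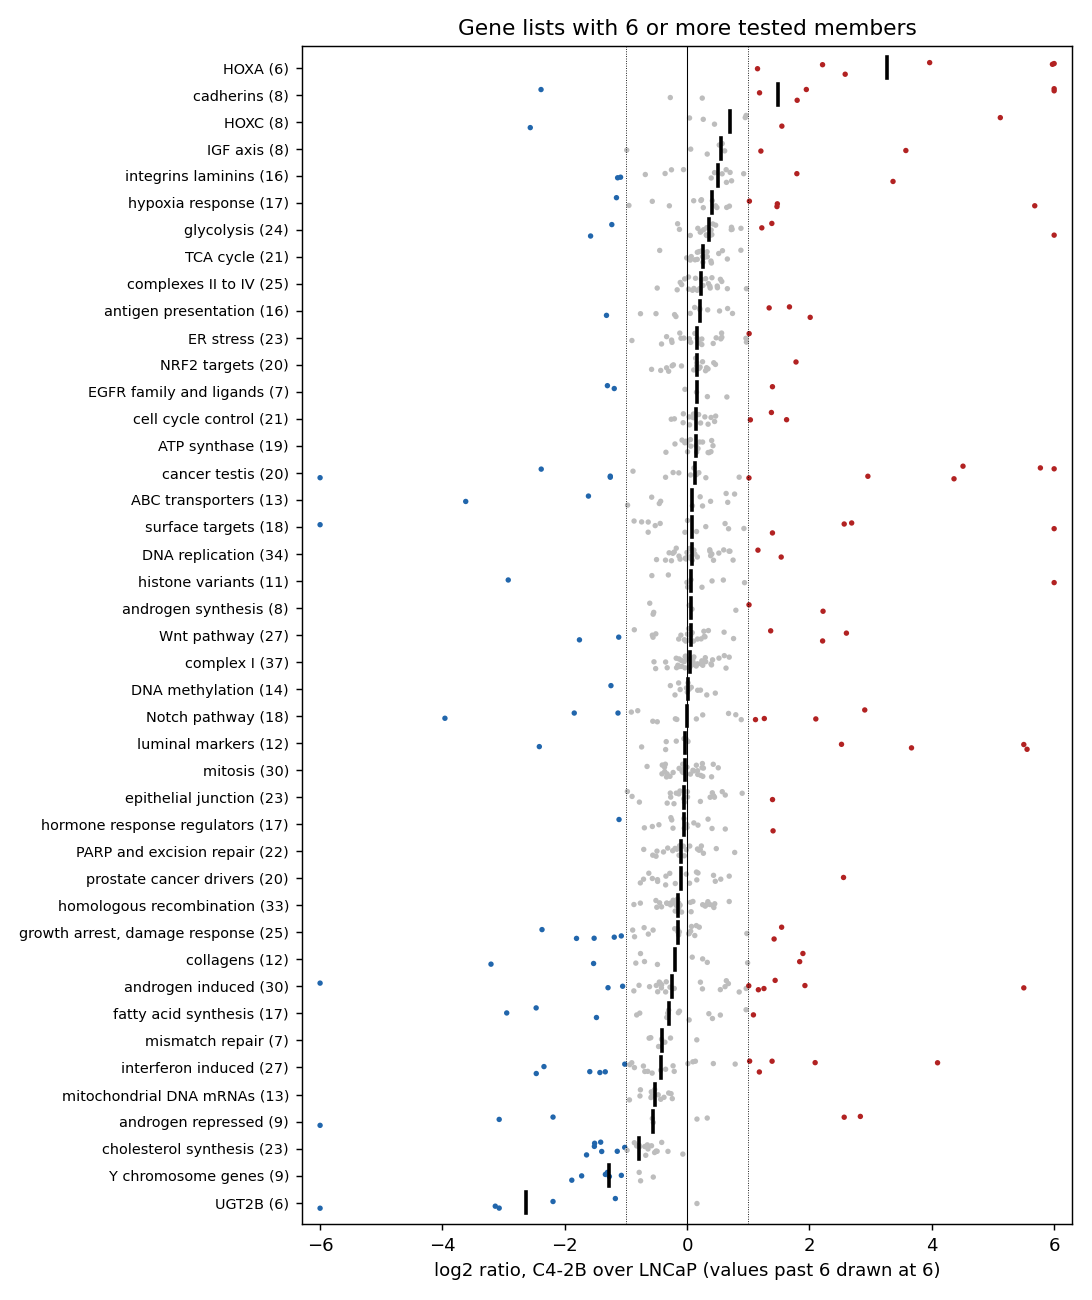
Log2 ratios of C4-2B over LNCaP for the tested members of each gene list with at least 6 of them (number in parentheses), with a bar at the list's median and dotted lines at 2-fold and values past 6 drawn at 6. Red and blue points are at least 2-fold higher and lower. HOXA lies at the top, UGT2B at the bottom, and cholesterol synthesis lies wholly below 0.

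Genes of cholesterol synthesis were low in C4-2B. The cholesterol pathway builds sterols from acetyl-CoA through mevalonate and is induced by the factor SREBP2 when cell sterol is low. All 23 tested genes were below 0, 7 of them (30.4%, against 7.18% of all genes) lower by 2-fold or more and none at least 2-fold higher, with a median of -0.78 on the log2 scale (95% binomial interval -1.02 to -0.58). HMGCS1, which makes HMG-CoA, measured 123 CPM in LNCaP against 46.7 in C4-2B, and 63.2 in LN-OlapR against 64.8 in 2B-OlapR. SQLE, squalene epoxidase, measured 68.7 CPM in LNCaP against 24.1 in C4-2B, and 45.6 in LN-OlapR against 40.2 in 2B-OlapR, and the later sterol enzymes MSMO1 and SC5D 44.2 CPM in LNCaP against 14.1 in C4-2B, and 34.6 in LN-OlapR against 27.2 in 2B-OlapR, and 52.9 CPM in LNCaP against 18.5 in C4-2B, and 35.03 in LN-OlapR against 29.97 in 2B-OlapR, respectively. For these genes LNCaP was the highest and C4-2B the lowest of the 4 libraries. IDI1, an isomerase, and LSS, lanosterol synthase, were also past 2-fold, with log2 ratios of -1.41 and -1.02. SREBF2, which encodes SREBP2, had a log2 ratio of -0.42, and EBP, the highest member, -0.07. In the sublines 7 members were above 0 and 16 below, with a median of -0.21. Of 17 members with a RefSeq promoter window, only SREBF2 held the sterol element TCACNCCAC, found in 1.13% of all windows on either strand.

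Fatty acid genes were mixed. Of 17 tested, ELOVL6, ACSL4 and SCD were at least 2-fold lower (17.65%, against 7.18% of all genes). SREBF1 was at least 2-fold higher (5.88%, against 8.0%). The list had a median of -0.30 on the log2 scale (95% binomial interval -0.77 to 0.36). The desaturase SCD measured 1061 CPM in LNCaP against 379.6 in C4-2B, and 1130.0 in LN-OlapR against 822 in 2B-OlapR, and the elongase ELOVL6 68.1 CPM in LNCaP against 8.796 in C4-2B, and 14.6 in LN-OlapR against 30.98 in 2B-OlapR. SREBF1, which encodes the lipogenic factor SREBP1, measured 337 CPM in LNCaP against 714 in C4-2B, and 707 in LN-OlapR against 1017 in 2B-OlapR, and fatty acid synthase (FASN) 2365 CPM in LNCaP against 2169.6 in C4-2B. C4-2B was thus the lowest library for SCD and ELOVL6 although SREBF1 was higher there than in LNCaP. The sterol exporter ABCA1 had 56 counts in LNCaP and 3 in C4-2B, 14.2-fold lower (exact 95% counting interval 4.62 to 70.97), and of 13 ABC transporters tested ABCA5 was the other past 2-fold.

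Few genes of glycolysis passed 2-fold. Of 24 tested, 20 were above 0 and 3 at least 2-fold higher (12.5%, against 8.0% of all genes), with a median of 0.35 on the log2 scale (95% binomial interval 0.21 to 0.72). Besides SLC16A3 these were PFKP, a phosphofructokinase, at 48.1 CPM in LNCaP against 126 in C4-2B, and 104 in LN-OlapR against 97.1 in 2B-OlapR, and PFKFB4, which tunes that step, at 18.7 CPM in LNCaP against 43.6 in C4-2B, and 18.1 in LN-OlapR against 13.1 in 2B-OlapR. ENO2 and PFKFB2 were at least 2-fold lower, with log2 ratios of -1.58 and -1.23. PFKP was lowest in LNCaP. In the sublines 11 members were above 0 and 13 below.

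Of 17 hypoxia-response genes, 13 were above 0 and 4 at least 2-fold higher (23.5%, against 8.0% of all genes). Their median was 0.41 on the log2 scale (95% binomial interval 0.11 to 0.69). VEGFA, the angiogenic factor, measured 62.98 CPM in LNCaP against 174 in C4-2B, and 99.3 in LN-OlapR against 83.9 in 2B-OlapR, and LOX, which crosslinks collagen, 0.298 CPM in LNCaP against 16.2 in C4-2B, and 0.557 in LN-OlapR against 6.76 in 2B-OlapR. VEGFA was highest in C4-2B, and LOX split the lines by branch. ANKRD37 and ERO1A were the other higher members, with log2 ratios of 1.48 and 1.02. The genes of the hypoxia factors themselves were lower, HIF1A with 124 CPM in LNCaP against 64.02 in C4-2B, and EPAS1 with 1.45 CPM in LNCaP against 0.635 in C4-2B. In the sublines 5 of the 17 response genes were above 0 and 12 below, with a median of -0.24.

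Respiratory chain genes encoded in the nucleus differed little. Complex I gave a median of 0.045 on the log2 scale (95% binomial interval -0.036 to 0.17) over 37 genes, from -0.54 in NDUFC2 to 0.69 in NDUFB7. Complexes II to IV gave a median of 0.23 on the log2 scale (95% binomial interval 0.088 to 0.38) over 25 genes, 20 of them above 0, from -0.49 in NDUFA4 to 0.97 in CYC1, the cytochrome c1 subunit. ATP synthase gave a median of 0.15 on the log2 scale (95% binomial interval -0.02 to 0.34) over 19 genes, and the TCA cycle a median of 0.26 on the log2 scale (95% binomial interval 0.17 to 0.39) over 21 genes, 19 of them above 0, from -0.45 in pyruvate carboxylase (PC) to 0.88 in DLAT. No gene of these lists passed 2-fold in either direction. The mRNAs encoded in mitochondrial DNA stood on the other side, with 13 of 13 below 0 and a median of -0.53 on the log2 scale (95% binomial interval -0.76 to -0.30), from -0.94 in MT-ND1 to -0.24 in MT-ATP8. MT-ND1 measured 5324 CPM in LNCaP against 2769 in C4-2B, and 9499 in LN-OlapR against 2914 in 2B-OlapR. These transcripts share promoters and precursors and are not independent. PINK1, the kinase that marks damaged mitochondria, measured 15.5 CPM in LNCaP against 14.3 in C4-2B, and 21.4 in LN-OlapR against 79.1 in 2B-OlapR, with a log2 ratio of -0.12 between the parental lines.

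Stress lists were close to 0. Of 20 NRF2 targets only NQO1, a quinone reductase, passed 2-fold, at 66.9 CPM in LNCaP against 229.7 in C4-2B, and PGD was the lowest, with a log2 ratio of -0.58. Of 23 endoplasmic reticulum stress genes only CHAC1 did, with a log2 ratio of 1.01, and SEL1L was the lowest, at -0.90. Of 3 metallothioneins tested, MT1F was higher (1.05) and MT1X, the most counted, was within 2-fold (-0.16).

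Proliferation genes were similar in the parental lines. Of 30 mitosis genes none passed 2-fold, and the median of -0.035 on the log2 scale (95% binomial interval -0.23 to 0.17) ran over members from -0.65 in CDC25C to 0.51 in FOXM1. MKI67, the proliferation marker, measured 399 CPM in LNCaP against 316 in C4-2B. Of 34 replication genes, RFC3, a clamp loader subunit, at 29.7 CPM in LNCaP against 86.2 in C4-2B, and 39.5 in LN-OlapR against 103 in 2B-OlapR, and the licensing factor CDT1, at 59.1 CPM in LNCaP against 132 in C4-2B, and 71.98 in LN-OlapR against 109 in 2B-OlapR, were at least 2-fold higher, with a median of 0.077 on the log2 scale (95% binomial interval -0.018 to 0.37). MCM6 was the lowest, with -0.50. Of 21 cell cycle regulators, CCND3 (39.5 CPM in LNCaP against 103 in C4-2B), CDK6 (3.65 CPM in LNCaP against 7.48 in C4-2B) and CDKN1C (1.53 CPM in LNCaP against 4.74 in C4-2B) were at least 2-fold higher, the first being a D cyclin, the next its kinase partner and the last a kinase inhibitor. They were 14.3% of the list, against 8.0% of all genes. MYC and RB1 had log2 ratios of 0.04 and 0.15.

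DNA repair, the process that PARP inhibitors exploit, held no gene past 2-fold in 33 homologous recombination genes, 22 genes of PARP and excision repair and 7 mismatch repair genes. The homologous recombination list had a median of -0.15 on the log2 scale (95% binomial interval -0.23 to 0.065). BRCA2 was its highest member, at 32.99 CPM in LNCaP against 53.2 in C4-2B, and 28.6 in LN-OlapR against 52.6 in 2B-OlapR, and BRIP1 its lowest, at 21.7 CPM in LNCaP against 11.9 in C4-2B, and 18.2 in LN-OlapR against 10.3 in 2B-OlapR. The checkpoint kinase ATM measured 46.02 CPM in LNCaP against 27.1 in C4-2B, and PARP1, the target of olaparib, 583 CPM in LNCaP against 600.5 in C4-2B. In the PARP and excision list, which also holds the end-joining factor SHLD2, the ratios ran from -0.71 in SHLD2 to 0.78 in NTHL1. Of the mismatch repair genes 6 of 7 were below 0, PMS2 at -0.62.

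Growth arrest and damage response genes went both ways, with more below 0 than above. Of 25 tested, 5 were at least 2-fold lower (against 7.18% of all genes) and 2 were higher by as much (against 8.0%), with 10 above 0, 15 below and a median of -0.15 on the log2 scale (95% binomial interval -0.70 to 0.058). SESN1, a stress sensor, measured 36.01 CPM in LNCaP against 10.3 in C4-2B, and 34.04 in LN-OlapR against 8.16 in 2B-OlapR, TP53INP1, a pro-death cofactor, 105 CPM in LNCaP against 36.5 in C4-2B, and 122 in LN-OlapR against 34.6 in 2B-OlapR, and SPATA18, a mitochondrial quality factor, 8.96 CPM in LNCaP against 1.71 in C4-2B, and 9.86 in LN-OlapR against 0.338 in 2B-OlapR. The C4-2B branch was below the LNCaP branch for all 3. FAS and GADD45A had log2 ratios of -1.19 and -1.08. GDF15, a secreted stress cytokine, measured 40.7 CPM in LNCaP against 119 in C4-2B, and 532 in LN-OlapR against 27.2 in 2B-OlapR, and TP53I3 3.24 CPM in LNCaP against 8.699 in C4-2B, and 5.83 in LN-OlapR against 2.85 in 2B-OlapR. For these 2 genes C4-2B was above LNCaP but 2B-OlapR was below LN-OlapR. CDKN1A (p21) had a log2 ratio of 0.033 and MDM2 of -0.56. In the sublines 24 of 25 of these genes were below 0.

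Of 20 prostate cancer driver genes tested, only SOX9, a developmental factor of the prostate bud, passed 2-fold, at 1.34 CPM in LNCaP against 7.97 in C4-2B, and 3.17 in LN-OlapR against 9.99 in 2B-OlapR.

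Interferon-induced genes went both ways. Of 27 tested, 6 were at least 2-fold lower (22.2%, against 7.18%) and 5 at least 2-fold higher (18.5%, against 8.0%), with a median of -0.43 on the log2 scale (95% binomial interval -0.90 to 0.14). DDX60 (4.17 CPM in LNCaP against 0.733 in C4-2B), IFI44 (2.83 CPM in LNCaP against 0.538 in C4-2B), HERC6 (22.1 CPM in LNCaP against 7.33 in C4-2B), IFITM1 (3.199 CPM in LNCaP against 1.17 in C4-2B), IFIT1 (1.53 CPM in LNCaP against 0.586 in C4-2B) and IFIT5 (3.497 CPM in LNCaP against 1.71 in C4-2B) were lower. BST2 (tetherin), which holds budding virus at the cell surface, measured 0.2604 CPM in LNCaP against 4.74 in C4-2B, and 0.472 in LN-OlapR against 88.6 in 2B-OlapR, and PARP14 2.83 CPM in LNCaP against 12.1 in C4-2B, and 0.557 in LN-OlapR against 6.805 in 2B-OlapR. SP100, OAS3 and IRF7 had log2 ratios of 1.39, 1.18 and 1.02. Most of these levels were under 10 CPM, where counts are few.

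Antigen presentation genes included 3 class I genes at least 2-fold higher in C4-2B, of 16 tested (18.75%, against 8.0% of all genes). HLA-C measured 53.9 CPM in LNCaP against 137 in C4-2B, and 62.8 in LN-OlapR against 156 in 2B-OlapR, HLA-E 9.26 CPM in LNCaP against 29.6 in C4-2B, and 16.98 in LN-OlapR against 21.3 in 2B-OlapR and HLA-F 1.04 CPM in LNCaP against 4.25 in C4-2B, and 2.44 in LN-OlapR against 3.14 in 2B-OlapR. HLA genes are alike in sequence and polymorphic, so reads can be divided among them. ERAP2, a peptide trimming enzyme, was the only one at least 2-fold lower (6.25% of the list, against 7.18% of all genes). It measured 1.75 CPM in LNCaP against 0.684 in C4-2B, and 0.6002 in LN-OlapR against 1.93 in 2B-OlapR.

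Cancer-testis genes, which are normally silenced outside the germ line, held large ratios of both signs. Of 20 tested, 6 were higher by 2-fold or more (against 8.0% of all genes) and 4 were lower (against 7.18%), with a median of 0.13 on the log2 scale (95% binomial interval -0.35 to 1.01). MAGEA1 measured 2.57 CPM in LNCaP against 142 in C4-2B, and 0.129 in LN-OlapR against 100.0 in 2B-OlapR and PAGE1 20.5 CPM in LNCaP against 159 in C4-2B, and 0.0429 in LN-OlapR against 159.7 in 2B-OlapR. CTAG2 measured 0.632 CPM in LNCaP against 14.8 in C4-2B, and 0 in LN-OlapR against 5.07 in 2B-OlapR and MAGEC2 5.17 CPM in LNCaP against 0.0489 in C4-2B, and 0.0857 in LN-OlapR against 0 in 2B-OlapR. MAGEA1 and CTAG2 were high in the C4-2B branch, PAGE1 was near 0 in LN-OlapR, and MAGEC2 was nearly absent outside LNCaP. GAGE1, CTAG1A and XAGE1A have near-identical copies, and their log2 ratios of 6.58, 4.36 and -1.26 are uncertain for that reason. MAGEA4 had a log2 ratio of -2.38 (95% counting interval -3.18 to -1.59) from few counts, 99 in LNCaP and 14 in C4-2B.

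Chromatin genes were mostly alike. MACROH2A2, a histone variant linked to silent chromatin, measured 66.2 CPM in LNCaP against 8.699 in C4-2B, and 3.301 in LN-OlapR against 0.434 in 2B-OlapR, a log2 ratio of -2.92 (95% counting interval -3.15 to -2.70). DNMT3A, a DNA methyltransferase, measured 63.1 CPM in LNCaP against 26.6 in C4-2B, and 22.8 in LN-OlapR against 10.2 in 2B-OlapR, and was the only one of 14 DNA methylation genes past 2-fold. EZH2, the Polycomb methyltransferase, had a log2 ratio of 0.46. Both MACROH2A2 and DNMT3A were lower in each resistant line than in its parent as well.

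Whole stretches of chromosomes shared a direction. Among chromosomes 1 to 22 and X, medians were lowest on chromosome 21 (-0.43, binomial interval -0.51 to -0.35, 192 genes) and chromosome 4 (-0.32, -0.38 to -0.27, 529 genes), and highest on chromosome 22 (0.19, 0.14 to 0.25, 388 genes) and chromosome 7 (0.17, 0.11 to 0.23, 713 genes). On chromosome 13, 16.7% of 270 genes were at least 2-fold higher, against 8.0% overall. On chromosomes 4 and 21, 14.6% and 14.1% were at least 2-fold lower, against 7.18% overall. Genes on a chromosome are not replicates, and these values describe 1 pair of libraries.

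Windows of 31 adjacent tested genes resolved this further, in GENCODE coordinates on GRCh38. Of 14331 windows, 668 had a median of at least 0.4 and 795 a median of at most -0.4, with a range from -1.08 to 1.11. In all, 11 unbroken runs of at least 50 such windows were found from these values and are described without a test. On chromosome 4 a run from 7758714 to 83335153, AFAP1 to HPSE, covered 190 genes with a median of -0.47, 150 of them below 0, and it contains the UGT2B cluster. In the sublines its median was -0.039. On chromosome 13 a run from 18195297 to 41061440 covered 90 genes with a median of 0.78, of which 32 were at least 2-fold higher, including RFC3 and SOHLH2. Its median was 0.66 in the sublines, so both pairs shared it.

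Chromosome 6 held runs of both signs. Its short arm was higher from 28281572 to 32853978, the HLA region (98 genes, median 0.51), and from 39104064 to 52803910 (86 genes, median 0.59), where RUNX2 lies. In the sublines the medians of these runs were 0.082 and 0.37. Its long arm was lower from 79201245 to 112102790 (98 genes, median -0.58) and, overlapping this, from 108986437 to 136913937 (90 genes, median -0.52). Their medians in the sublines were -0.28 and -0.07. SESN1 and CD24 lie in the lower part. On chromosome 7, runs from 107201555 to 135648757 (96 genes, median 0.51) and from 140023744 to 155645205 (100 genes, median 0.43) were higher in C4-2B, whereas their medians in the sublines were -0.18 and -0.21. LN-OlapR was above LNCaP in these runs by medians of 0.41 and 0.49. MET, SMO, CADPS2 and ATG9B lie there.

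On chromosome 19, a run from 55476332 to 58418327 had a median of -0.64 over 87 genes. By name 64 of the 87 were zinc finger genes, of which 54 were below 0 and 17 at least 2-fold lower, and the run's median in the sublines was -0.82. On chromosome 21 lower medians were found from 5022493 to 36004667 (99 genes, median -0.46) and, overlapping this, from 33266358 to 44462196 (80 genes, median -0.45). Their medians in the sublines were -0.39 and -0.31, and genes in the overlap are counted in both. TMPRSS2 lies in the latter run. RUNX1, itself higher in C4-2B, lies in the overlap, at the edge of the former run. DNA copy number was not measured in these libraries.

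**Figure D5:**
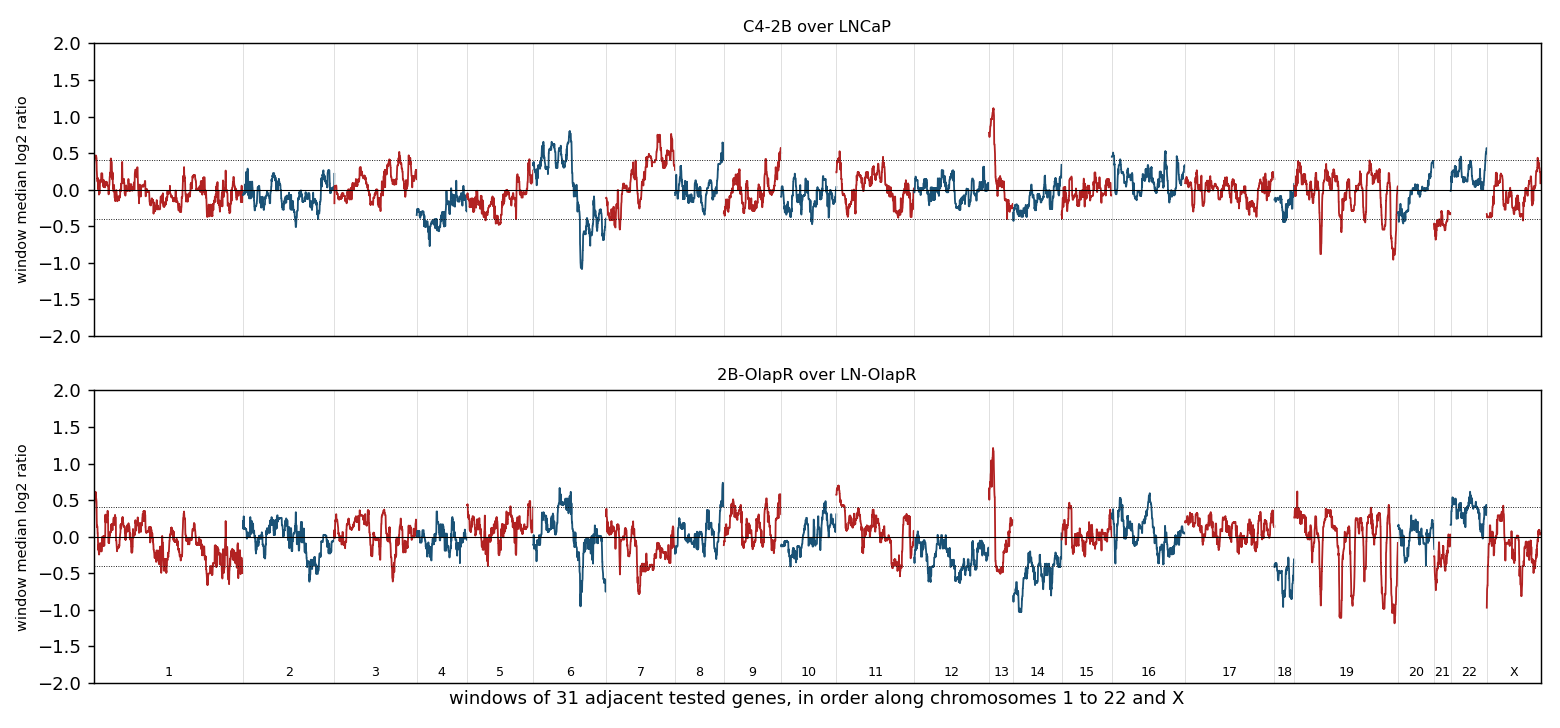
Median log2 ratio in windows of 31 adjacent tested genes, in order along chromosomes 1 to 22 and X, for C4-2B over LNCaP (upper) and 2B-OlapR over LN-OlapR (lower), with dotted lines at 0.4 above and below 0. Low stretches on chromosomes 4, 6 and 21 and high stretches on chromosomes 6, 7 and 13 are seen in the upper panel, and the lower panel shows those on chromosomes 13 and 21 and part of those on chromosome 6 again, with the low end of chromosome 19 in both.

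The Y chromosome was expressed less in C4-2B. Of 19 tested genes on the Y, 9 (47.4%, against 7.18% of all genes) were at least 2-fold lower and none at least 2-fold higher, with 15 below 0, 4 above and a median of -0.78 on the log2 scale. The list of Y genes had 9 tested members, all below 0 and 6 of them at least 2-fold lower, with a median of -1.27 on the log2 scale (95% binomial interval -1.72 to -0.76). DDX3Y, an RNA helicase, measured 63.8 CPM in LNCaP against 19.3 in C4-2B, and 61.3 in LN-OlapR against 0.2896 in 2B-OlapR, the demethylase KDM5D 40.8 CPM in LNCaP against 16.5 in C4-2B, and 33.5 in LN-OlapR against 0 in 2B-OlapR and the translation factor EIF1AY 17.04 CPM in LNCaP against 4.59 in C4-2B, and 18.4 in LN-OlapR against 0 in 2B-OlapR. USP9Y, a deubiquitinase, measured 153 CPM in LNCaP against 72.4 in C4-2B, and 222 in LN-OlapR against 0 in 2B-OlapR, and UTY was the member nearest 0, with a log2 ratio of -0.55. C4-2B stood below both lines of the LNCaP branch in each of these, and 2B-OlapR was at or near 0 counts.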

How the data were processed

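RNA from 4 prostate cancer cell lines was sequenced by the authors as stranded mRNA libraries, 1 per line. The authors deposited expected counts per gene, not scaled between libraries, of which 46.0% were not whole. The submitters' processing notes name STAR, Partek and GRCh38 (hg38) without roles, and the annotation release is not given in the sources used here. The study's text and its design record give different plating times before RNA isolation. Totals were 26394267 (LNCaP), 24278062 (LN-OlapR), 19950537 (C4-2B) and 20796946 (2B-OlapR), and no row sums to under 10. The table has 4172 genes without a symbol and 73 repeated symbols, of which the first entry was used.

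The design had assumed whole counts, so values were rounded. Scaling used TMM factors over the 4 libraries (edgeR 4.0.16, R 4.3.3), and later steps used Python 3.11.15 with pandas 2.3.3 and SciPy 1.17.1. Log2 ratios used a pseudocount of 0.5 counts, and genes were kept when the mean of the pair reached 1 normalized CPM. Intervals at 95% are normal for log2 ratios, exact for ratios resting on 1 to 3 counts and binomial for medians, and leave out the spread between cultures. Where a library was at 0, a bound was computed with a floor of 3 counts per library. The scripts were tested on simulated data. Positions came from GENCODE 29 (GRCh38) for 96.6% of tested genes, and promoters from RefSeq.

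The members, 53 gene lists and named genes were chosen with earlier results of these data known. Genes named were the 15 highest and 15 lowest ratios with a mean of at least 10 CPM, the extreme members and up to 8 members past 2-fold of each list, and fixed genes of prostate cancer. SLC45A3, NCOR1, EPCAM, CDH1, COL1A1, ERBB2, ERBB3, IGF1R, SREBF2, FASN, HIF1A, MDM2, CDKN1A, MKI67, PARP1, UGT2B7, IFIT5, OAS3, IRF7, SLC7A5, TM4SF1, RUNX1 and SMO were named beyond it after their values were seen. List genes without a row were not analysed here, and a few named by the rule are left out of the text. Alternatives were other scalings, another pseudocount, other minimum levels and a stricter call.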

Additional observations from a re-analysis of the deposited data

Results flagged for a closer look

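The results given here had opposite directions in C4-2B over LNCaP and in 2B-OlapR over LN-OlapR, contrasts that share no library. Genes that the text names or considered for naming were examined, and lists with at least 6 tested members. A gene was included when both log2 ratios were at least 1 in size, with at least 10 counts in the higher library of each pair, and a list when both medians were at least 0.25 in size. With 1 library per line the difference between the contrasts was not tested, and selection in olaparib cannot be told apart from line of descent. There were 19 such genes, out of the 75 higher and 72 lower genes of all those tested that were past 2-fold in opposite directions before the minimum count, and 4 such lists.

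Among lists, androgen-repressed genes had a median log2 ratio of -0.55 in the parental lines and 0.87 in the sublines, UGT2B genes -2.63 and 1.17, interferon-induced genes -0.43 and 0.52, and cadherins 1.49 and -0.49. The cadherin median in the parental lines was shaped by members that passed the minimum level only through C4-2B. The UGT2B genes past 2-fold in both contrasts were UGT2B11 (-1.17 and 1.05), UGT2B15 (-2.19 and 1.80) and UGT2B17 (-3.07 and 1.29), and these levels were at most 2.896 CPM in the sublines.

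Genes higher in C4-2B and lower in 2B-OlapR, each with its log2 ratio in the parental lines and then in the sublines, were GDF15 (1.54 and -4.29), CYP11A1 (2.22 and -3.07), CDK6 (1.03 and -2.10), TM4SF1 (5.84 and -1.73), PCDH7 (6.60 and -1.70), SNAI2 (1.47 and -1.41), STEAP4 (1.44 and -1.32), CD68 (3.30 and -1.23), HOXC12 (1.55 and -1.06) and TP53I3 (1.42 and -1.03). Genes lower in C4-2B and higher in 2B-OlapR were XAGE1A (-1.26 and 9.13), TGFA (-1.19 and 2.84), ERAP2 (-1.32 and 1.65), ACSL4 (-2.47 and 1.24), ELOVL6 (-2.95 and 1.08) and HERC6 (-1.59 and 1.03). GDF15 was highest in LN-OlapR, and XAGE1A was at 0.043 CPM there.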

How the results depend on the processing

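The counts of 2-fold genes depended on the minimum level and on the strictness of the call. They were 2809 higher and 2495 lower with a minimum mean of 0.1 CPM, 424 and 348 with a minimum of 10 CPM, and 810 and 568 where the whole counting interval had to lie past 2-fold, against 1246 and 1118. With total counts, DESeq2 size factors, upper quartile factors, TMM factors over each pair of libraries alone or a pseudocount of 2, they ran from 1229 to 1292 higher and from 1058 to 1127 lower. The shares of these genes past 2-fold the same way in the sublines, 51.4% and 48.1%, were 46.7% and 43.3% at the lower minimum and 46.2% and 52.6% at the higher one. The medians of 43 lists, recomputed in 7 ways, each stayed within the binomial interval. Chromosome 1 moved to a median of -0.0046 with upper quartile factors, and chromosome 19 to 0.060 at a minimum of 10 CPM. Of 245 genes, 2 moved beyond the counting interval, FASN to -0.098 and MT-ND1 to -0.92 with upper quartile factors, and none past 2-fold changed sign. Other scalings moved the median of all genes to between -0.016 and 0.0099, and the share of calls that were higher, 52.7%, to at most 55.0%, or 58.8% under the stricter call. No paired analysis was possible because each line has 1 library, and for the same reason no replicate could be left out. Depth limits genes near 1 CPM, where the floor of 3 counts was 0.112 CPM in LNCaP and 0.147 in C4-2B.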
